A study of Mus musculus with 2 samples.

Results

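The expression of 10 genes of the Polycomb repressive complexes was compared between E14 and E14-Sox2 TA/WT mouse embryonic stem cells (ESCs) by RNA-seq. The genes were taken by symbol from the gene table of the series: Ezh2, Eed, Suz12, Jarid2 and Mtf2 of Polycomb repressive complex PRC2, and Ring1, Rnf2, Cbx7, Cbx2 and Kdm2b of PRC1. The rule names symbols and no measured value, although earlier results of these data were known when it was written. All 10 were found among 24532 genes. Levels are given as TPM, a read count adjusted for transcript length and scaled to a fixed library total, which allows genes of different length to be set side by side. The study's filter asks for a TPM of 10 or more in either library, and all 10 genes passed it, as did 9094 genes of the whole table.

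E14 is an established mouse ESC line and carried wild-type Sox2. The other library came from a clone of E14 named E14-Sox2 TA/WT (TA/WT cells), made with CRISPR/Cas9, which is heterozygous for Sox2 T258A, a change that removes a site for the sugar modification O-GlcNAc, and keeps a wild-type allele. According to the study's methods, E14 was cultured with serum and leukemia inhibitory factor (LIF), and the clone was expanded from a single cell and normally kept with inhibitors of Mek (PD0325901) and Gsk3 (CHIR99021) that were withdrawn ahead of the experiments. Genotype, clonal origin and past exposure to the inhibitors cannot be told apart here.

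Each group had 1 library, so the differences are between these libraries, without replicates and without p-values. The libraries held 60263536 counted reads in E14 and 44609228 in TA/WT cells. Sox2 itself had a TPM of 373 in E14 and 274 in TA/WT cells. All 8 ESC markers examined had reads in both libraries, and their summed TPM was 5390 in E14 and 4747 in TA/WT cells. Of these, Nanog was more than 2-fold lower in TA/WT cells (TPM 527 and 251). Of 8 fibroblast markers, Dcn, Lum and Postn had no reads in either library and the other 5 had reads in both, with a summed TPM of 49.8 in E14 and 19.5 in TA/WT cells. Among those 5, Thy1 (2189 and 419 reads) and Pdgfrb (1151 and 327) were lower in TA/WT cells, and Col3a1 (15 and 151) and Col1a2 (43 and 109) were higher. All 7 primitive endoderm markers had reads in both, with a summed TPM of 46.9 in E14 and 17.4 in TA/WT cells. The part of such cells in the results was not tested, and in bulk RNA fewer cells of a type and less RNA per cell cannot be told apart.

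Polycomb proteins keep developmental genes at low expression. PRC2 methylates lysine 27 of histone H3 through Ezh2 or its relative Ezh1, and PRC1 attaches ubiquitin to histone H2A through Ring1 or Rnf2. In ESCs both complexes sit at CpG islands, stretches rich in CG dinucleotides that cover the promoters of many lineage regulators. The accessory subunits, such as Jarid2, Mtf2 and Kdm2b, help bring the complexes to these sites.

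Most of the 10 genes differed little, and 2 accessory genes stood apart. Jarid2 and Kdm2b were more than 2-fold higher in TA/WT cells, which is 2 of 10 genes beside 4.17% of all genes past the filter. None of the 10 was more than 2-fold lower, beside 4.07% of all genes. The other 8 genes had log2 ratios of TPM (E14-Sox2 TA/WT over E14) from -0.24 to 0.50, with Mtf2 alone below 0. The median of the 10 log2 ratios was 0.32, and that of all genes past the filter was 0.08.

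**Figure D1:**
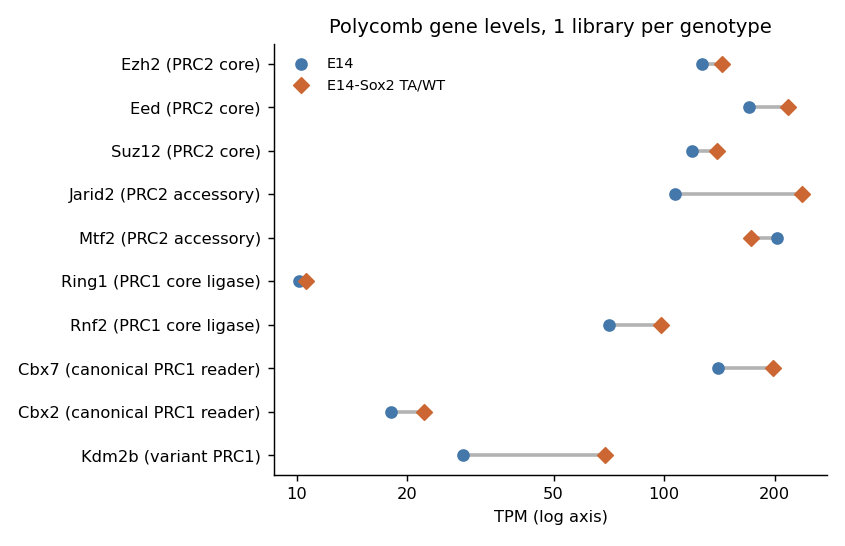
TPM of each of the 10 Polycomb genes on a log axis, with a circle for the E14 library and a diamond for the TA/WT library. Jarid2 (107 to 238) and Kdm2b (28.3 to 69.2) show the widest gaps, and Mtf2 (203 to 172) is the gene with the diamond on the left.

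The core of PRC2 was examined first. On GRCm38, Ezh2 lies on chromosome 6 (47530274 to 47595270), Eed on chromosome 7 (89954654 to 89980976) and Suz12 on chromosome 11 (79993106 to 80034123). Ezh2, the methyltransferase, had 10617 reads in E14 and 8021 in TA/WT cells, or a TPM of 127 and 143. Eed, which binds methylated histone H3 and stimulates the enzyme, had 11042 reads in E14 and 9472 in TA/WT cells, or a TPM of 170 and 218. Suz12, the scaffold on which accessory subunits assemble, had 16317 reads in E14 and 12856 in TA/WT cells, or a TPM of 119 and 140. The TA/WT library was thus slightly higher for each core gene. The log2 ratios were 0.17 for Ezh2 (95% interval from the counting of reads 0.13 to 0.21), 0.36 for Eed (0.32 to 0.40) and 0.23 for Suz12 (0.20 to 0.27), where the sign for Suz12 turned with the trend of the ratio with GC content and length removed (-0.08).

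On the TPM scale the 3 core genes kept similar proportions to each other. The quotient of Ezh2 to Suz12 TPM was 1.07 in E14 and 1.03 in TA/WT cells. For Eed to Suz12 it was 1.43 and 1.56. Such quotients are taken within a library and do not depend on how the libraries are scaled against each other. Between the libraries, the log2 change of the quotient was -0.06 (-0.11 to -0.01) for Ezh2 to Suz12 and 0.12 (0.07 to 0.18) for Eed to Suz12. The proportions depend on the GC and length trend, since after its removal the log2 ratio was 0.40 for Eed, 0.06 for Ezh2 and -0.08 for Suz12.

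Jarid2 and Mtf2, which join alternative forms of PRC2, differed in opposite directions. Jarid2 lies on chromosome 13 (44730774 to 44921643) and Mtf2 on chromosome 5 (108065660 to 108109219). Jarid2, a DNA-binding relative of the jumonji demethylases without that enzyme activity, had 20073 reads in E14 and 30016 in TA/WT cells, or a TPM of 107 and 238. It had more reads in the TA/WT library although that library was the smaller one, and it moved from sixth to highest of the 10 genes by TPM. The ratio was 2.23-fold (counting interval 2.19 to 2.27), or 1.15 on the log2 scale. Of all genes past the filter, 2.89% had a ratio at least as high. Mtf2, a Polycomb-like protein that binds unmethylated CG-rich DNA, had 29234 reads in E14 and 16190 in TA/WT cells, or a TPM of 203 and 172. It was the highest of the 10 genes in E14 and the fourth in TA/WT cells. Its log2 ratio was -0.24 (-0.27 to -0.21), and it was below 0 under every scaling examined.

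The balance of the pair therefore crossed over. Jarid2 was 0.527 times the TPM of Mtf2 in E14 and 1.38 times in TA/WT cells. The log2 change of the quotient was 1.39 (1.35 to 1.43). Set against Suz12, Jarid2 went from a quotient of 0.899 to 1.70 and Mtf2 from 1.71 to 1.23. These quotients were chosen after the values of the genes had been seen.

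Sequences of the start regions are shown for Jarid2 and Kdm2b, the genes past 2-fold, and for Mtf2, the member below 0, because CG dinucleotides are what Mtf2 and Kdm2b bind. Each window holds 250 bases before and 50 bases after a RefSeq start site on GRCm38.p6, printed 5′ to 3′ on the strand of the gene, and capitals mark every CG. RefSeq lists 2 windows for Jarid2, 2 for Mtf2 and 4 for Kdm2b, of which those below were taken, with both distant starts of Kdm2b.
Jarid2, chr13:44730524-44730823, plus strand: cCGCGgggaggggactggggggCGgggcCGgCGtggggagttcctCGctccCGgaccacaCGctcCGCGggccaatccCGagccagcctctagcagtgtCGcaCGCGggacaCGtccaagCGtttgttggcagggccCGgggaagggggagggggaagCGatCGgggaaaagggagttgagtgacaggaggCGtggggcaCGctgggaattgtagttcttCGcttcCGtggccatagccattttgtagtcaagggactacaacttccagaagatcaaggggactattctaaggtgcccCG
Mtf2, chr5:108065424-108065723, plus strand: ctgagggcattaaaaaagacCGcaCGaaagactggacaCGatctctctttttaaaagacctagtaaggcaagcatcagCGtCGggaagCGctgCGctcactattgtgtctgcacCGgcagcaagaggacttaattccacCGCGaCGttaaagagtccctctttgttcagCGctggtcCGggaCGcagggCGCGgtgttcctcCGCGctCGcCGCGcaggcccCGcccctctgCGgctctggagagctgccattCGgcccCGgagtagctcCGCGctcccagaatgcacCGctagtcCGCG
Kdm2b, chr5:122989050-122989349, minus strand: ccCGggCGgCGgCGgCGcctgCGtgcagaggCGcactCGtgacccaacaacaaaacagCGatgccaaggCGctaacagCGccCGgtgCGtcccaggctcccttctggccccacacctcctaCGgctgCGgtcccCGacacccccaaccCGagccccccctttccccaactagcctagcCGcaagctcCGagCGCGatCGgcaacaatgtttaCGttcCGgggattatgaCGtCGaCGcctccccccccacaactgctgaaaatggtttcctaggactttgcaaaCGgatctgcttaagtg
Kdm2b, chr5:122900318-122900617, minus strand: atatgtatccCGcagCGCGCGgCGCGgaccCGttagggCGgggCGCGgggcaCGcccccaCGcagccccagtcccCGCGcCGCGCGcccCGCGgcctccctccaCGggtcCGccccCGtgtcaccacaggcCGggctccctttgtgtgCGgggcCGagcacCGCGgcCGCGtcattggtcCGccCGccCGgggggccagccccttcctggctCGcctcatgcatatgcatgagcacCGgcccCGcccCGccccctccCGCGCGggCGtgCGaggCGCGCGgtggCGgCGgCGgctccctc

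The printed windows hold 24 CG for Jarid2, 30 for Mtf2, and 28 and 47 for the starts of Kdm2b. Of the 10 genes, 9 had listed windows, 14 in all, with a median of 30 CG and a range of 2 to 49. The window with 2 CG is the other start of Mtf2 (chr5:108077915-108078214), which is not printed. The median over all 32851 listed windows was 7. Windows above that median belonged to genes that were higher, lower and near level in TA/WT cells. The core Sox motif was searched on both strands as ACAAAG or ACAATG. It occurred in 6 of the 14 windows, among them the window of Mtf2 and both windows of Kdm2b shown, but not that of Jarid2, and in 28.6% of all windows. The 6 include 2 overlapping windows of Kdm2b that hold the same match, so they are not separate cases. A match of 6 letters is a description and not a binding site.

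The ubiquitin ligases of PRC1 were unequal in level. Ring1 lies on chromosome 17 (34020792 to 34024680) and Rnf2 on chromosome 1 (151469398 to 151500991). Ring1 had 649 reads in E14 and 456 in TA/WT cells, or a TPM of 10.1 and 10.6, the lowest of the 10 genes in both libraries. Rnf2, also named Ring1b, had 6765 reads in E14 and 6279 in TA/WT cells, or a TPM of 70.9 and 98.2. Rnf2 thus supplied most of the ligase transcripts, with 87.5% of the summed TPM of the pair in E14 and 90.3% in TA/WT cells. The log2 ratio was 0.47 for Rnf2 (0.42 to 0.52) and 0.07 for Ring1 (-0.11 to 0.24). On the TPM scale no difference of Ring1 was detectable at its depth, and its sign changed with FPKM (-0.08), CPM (-0.08) and centring on the median of all genes (-0.02), whereas it was 0.32 after removal of the GC and length trend.

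Cbx proteins are the readers that bind methylated lysine 27 of histone H3 in canonical PRC1. Cbx7 (chromosome 15, 79915804 to 79971143), the main Cbx protein of ESCs, had 12782 reads in E14 and 12111 in TA/WT cells, or a TPM of 140 and 198. Cbx2, which can also compact chromatin, had 2140 reads in E14 and 1755 in TA/WT cells, or a TPM of 18.1 and 22.2. Both were moderately higher in TA/WT cells, with log2 ratios of 0.50 (0.46 to 0.54) and 0.29 (0.20 to 0.38). Cbx7 stayed the third highest of the 10 genes in both libraries.

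Of the summed TPM of Cbx2, Cbx6, Cbx7 and Cbx8, Cbx7 held 73.8% in E14 and 72.8% in TA/WT cells. Cbx6 had a TPM of 29.8 in E14 and 51.7 in TA/WT cells (5115 and 5950 reads), and it shares 563 exon bases on the same strand with Npcd, which went from 1949 to 254 reads. Cbx8 was low in E14, with 85 reads and a TPM of 1.92, and lower in TA/WT cells, with 6 reads and a TPM of 0.204. Its log2 ratio was -3.23 (-4.72 to -2.05). Cbx8 lay under the TPM filter and does not enter the counts above. With the filter set at a TPM of 1, 9.95% of all genes were lower and 6.45% were higher. Cbx8 passed that filter through E14 alone, which favours a difference.

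Cbx2 and Cbx8 lie next to each other on chromosome 11 (GRCm38: Cbx2 119023019 to 119031275, Cbx8 119036303 to 119040913), and Cbx2 was not lower in TA/WT cells. The quotient of Cbx2 to Cbx8 TPM was 9.42 in E14 and 109 in TA/WT cells, a log2 change of 3.53 with the wide interval of 2.34 to 5.02 that 6 reads allow. The summed TPM of primitive endoderm markers given above was also lower in TA/WT cells, and a relation to Cbx8 was not tested. With the filter at a TPM of 1, 1366 genes were more than 2-fold lower. With 1 library per group such a relation cannot be singled out.

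Kdm2b had the highest ratio of the 10 genes. It encodes a CG-binding subunit of variant PRC1, the form of the complex without a Cbx protein, and also carries a histone demethylase domain. Kdm2b had 4552 reads in E14 and 7292 in TA/WT cells, or a TPM of 28.3 and 69.2. As for Jarid2, the smaller library held more reads. The ratio was 2.44-fold (2.36 to 2.54), or 1.29 on the log2 scale (1.24 to 1.34), and 2.03% of all genes past the filter had a ratio at least as high. Kdm2b stayed the eighth of the 10 genes by TPM in both libraries.

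The gene that shares the start region of Kdm2b was also higher in TA/WT cells. A930024E05Rik, a noncoding gene on the plus strand of chromosome 5 (122989354 to 122998345), begins in RefSeq 84 bases beyond the end of Kdm2b (122870664 to 122989270, minus strand). It had 37 reads in E14 and 400 in TA/WT cells, or a TPM of 0.618 and 9.99, just under the filter. The log2 ratio was 4.01 (3.53 to 4.54). GENCODE places 199 of its exon bases over Kdm2b exons on the opposite strand, and the handling of strand is not given in the sources used here. With all reads of A930024E05Rik taken away from Kdm2b in both libraries, the log2 ratio of Kdm2b was 1.22. Kdm2b also shares 627 exon bases with Rnf34 on the opposite strand, which was level with a TPM of 55.4 in E14 and 56.8 in TA/WT cells.

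**Figure D2:**
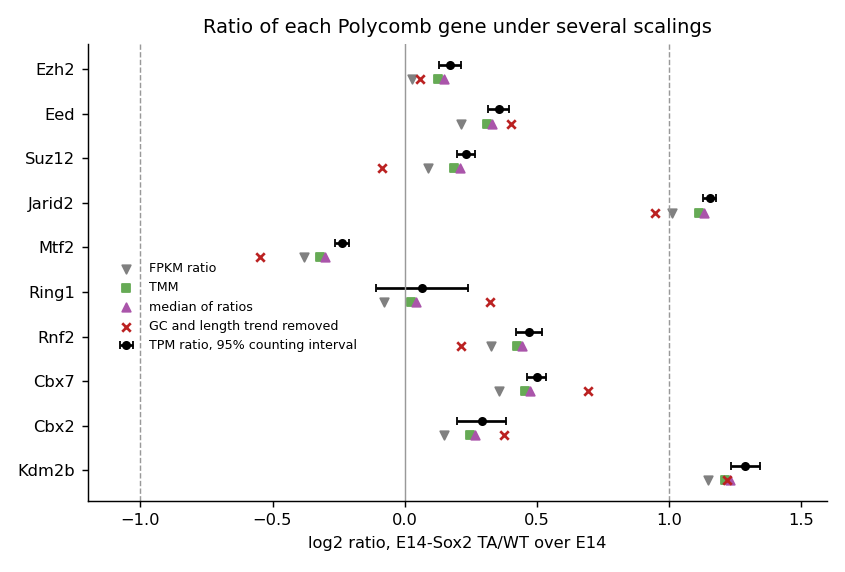
Log2 ratio (E14-Sox2 TA/WT over E14) of each Polycomb gene, with the TPM ratio and its 95% counting interval in black, other scalings of the libraries as symbols below it, and dashed lines at 2-fold. Kdm2b stays past 2-fold in each setting drawn, and Jarid2 falls to 0.95 once the GC and length trend is removed.

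Among genes past the filter the ratio was higher for longer transcripts, and Jarid2 (5997 bases) and Kdm2b (5180 bases) have long transcripts. Genes past the filter in the shortest of 20 length bins had a median log2 ratio of -0.17 and those in the longest had 0.54. The bin of Jarid2 had a median of 0.36 and that of Kdm2b 0.28. With the trend on GC content and length removed, the log2 ratio was 0.95 for Jarid2, short of 2-fold, and 1.22 for Kdm2b, which remained past it. Mtf2 then had -0.55, Cbx7 0.69 and Rnf2 0.21.

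Partners of the 10 genes were examined as lists from general knowledge. The 5 lists of further subunits and of genes that oppose Polycomb held 54 genes in the table, of which 41 passed the filter. None of the 41 differed more than 2-fold, beside 4.17% of all genes higher and 4.07% lower. Their log2 ratios ran from -0.74 to 0.85 with a median of 0.28, and 30 of the 41 were above 0, beside 57.3% of all genes past the filter. Among these 41 genes and the 10, Jarid2 and Kdm2b were therefore the genes past 2-fold. Their share of these genes was close to the 4.17% of all genes that were higher.

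Among the other PRC2 subunits, 5 of 9 passed the filter, with a median log2 ratio of -0.05 that was 0.15 after removal of the GC and length trend. The highest was Rbbp4, a histone chaperone subunit, with a TPM of 167 in E14 and 236 in TA/WT cells (log2 ratio 0.50). The lowest was Ezh1, the second methyltransferase of PRC2, with 33.7 and 22.9 (-0.56). Ezh2 thus accounted for 79.0% of the summed TPM of Ezh1 and Ezh2 in E14 and 86.2% in TA/WT cells, and the quotient of Ezh2 to Ezh1 changed by 0.73 (0.65 to 0.82) on the log2 scale. Epop, which like Mtf2 belongs to the form of PRC2 without Jarid2, had a TPM of 176 in E14 and 171 in TA/WT cells. Aebp2, which joins PRC2 together with Jarid2, had 47.0 and 43.4.

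Among the other canonical PRC1 subunits, 5 of 9 passed the filter, with a median of 0.13 that changed sign with FPKM (-0.02), CPM (-0.13), TMM (-0.03) and median-of-ratios scaling (-0.01). Cbx6 was highest (0.80) and Scmh1, a sex comb protein, was lowest (-0.52). Of the variant PRC1 subunits, 16 of 19 passed, with a median of 0.12 that also changed sign with FPKM (-0.02) and CPM (-0.02). Mga, a DNA-binding subunit, was highest (0.78, or 0.22 with the trend removed), and Pcgf1 was lowest.

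Pcgf1 is the partner through which Kdm2b joins variant PRC1. Pcgf1 had 849 reads in E14 and 342 in TA/WT cells, or a TPM of 30.8 and 18.5, a log2 ratio of -0.74 (-0.92 to -0.55). Kdm2b and Pcgf1 had therefore nearly equal TPM in E14, with a quotient of 0.918, and Kdm2b was 3.74 times Pcgf1 in TA/WT cells. The log2 change of the quotient was 2.03 (1.84 to 2.22). This quotient was not planned, and it sets a long transcript (Kdm2b, 5180 bases) against a short one (Pcgf1, 866 bases). After removal of the GC and length trend, the log2 ratio was 1.22 for Kdm2b and -0.50 for Pcgf1. The change of the quotient was therefore smaller on that scale, and the counting interval does not cover this dependence. Of the other Pcgf genes, which define the variants of PRC1, Pcgf6 had the largest share of the summed TPM, with 31.8% in E14 and 33.4% in TA/WT cells. The share of Pcgf2, the Pcgf protein of canonical PRC1 in ESCs, was 23.4% and 19.8%. That of Pcgf3 was 19.8% and 25.7%, that of Pcgf5 was 7.68% and 7.57%, and that of Bmi1 was 2.07% and 2.91%.

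**Figure D3:**
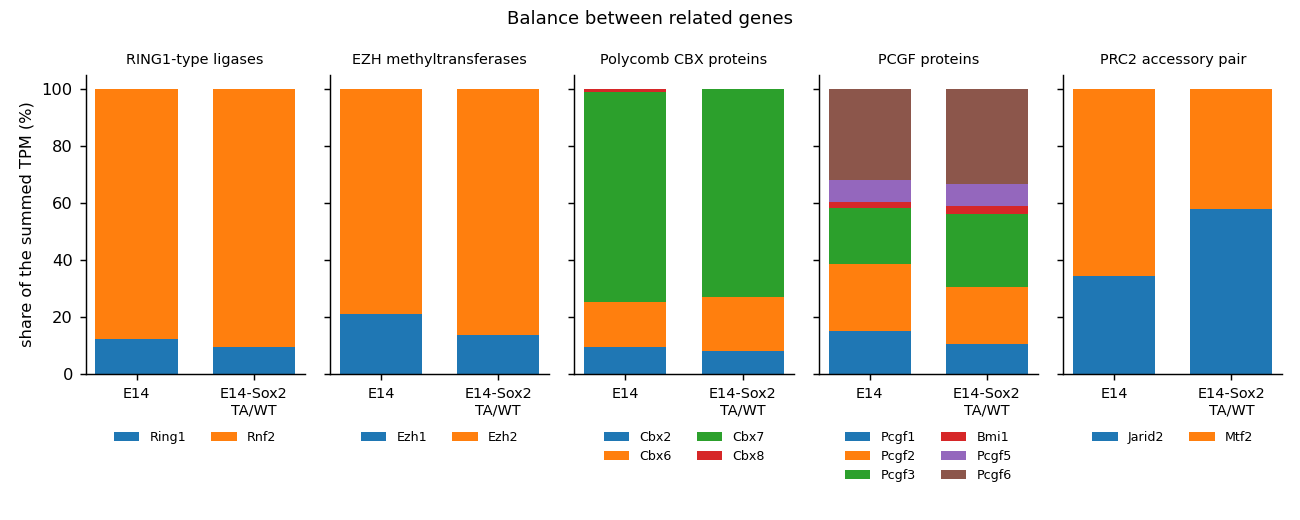
Share of the summed TPM (%) within 5 groups of related Polycomb genes, with 1 bar for the E14 and 1 for the TA/WT library. Jarid2 grows from 34.5% to 58.0% of the pair with Mtf2, whereas Cbx7 is at 73.8% and 72.8% of the Cbx genes drawn.

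Genes of the lists that act against Polycomb were mostly a little higher in TA/WT cells, where 57.3% of all genes past the filter were above 0. PR-DUB removes ubiquitin from histone H2A, and 9 of its 11 genes passed the filter, with a median of 0.57 and a range from Mbd6 (-0.37) to Asxl2 (0.82). Asxl3 lay under the filter, with 98 reads in E14 and 382 in TA/WT cells (log2 ratio 2.54). It reached a TPM of 1 in TA/WT cells alone. All 6 genes of the last list were above 0, from Kdm6b (0.27), which demethylates lysine 27, to Kmt2a (0.85), which methylates lysine 4 of histone H3. Their median was 0.61, or 0.27 with the GC and length trend removed, where that of PR-DUB was 0.46.

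**Figure D4:**
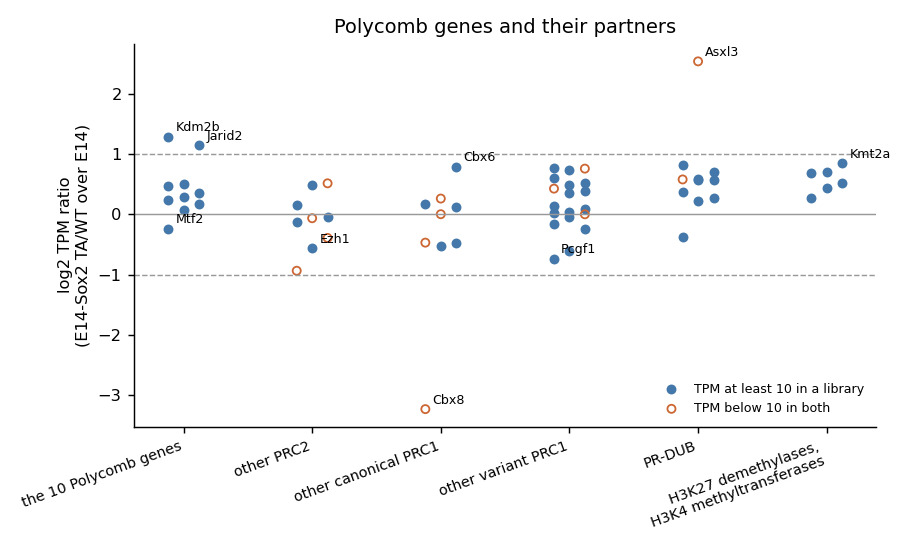
Log2 TPM ratio of the 10 Polycomb genes and of the genes in 5 lists of partners and opposing genes, with filled points for genes past the TPM filter, open points for genes under it and dashed lines at 2-fold. Jarid2 and Kdm2b are the filled points past 2-fold, and Cbx8 and Asxl3 are the open ones.

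The levels of 50 developmental regulators known as Polycomb-bound genes in ESCs were compared last. Of these, 24 stayed under a TPM of 1 in both libraries and 5 reached a TPM of 10 in at least 1. Among the 5, Cdx2, T and Sox1 were more than 2-fold higher, beside 4.17% of all genes past the filter. Gata4 was more than 2-fold lower, beside 4.07%. Cdx2, T and Sox1 reached a TPM of 10 in TA/WT cells alone and Gata4 in E14 alone, which favours a difference. Cdkn2a, the cell cycle inhibitor locus, had a TPM of 34.6 in E14 and 20.9 in TA/WT cells. With the filter set at a TPM of 1, 12 of 26 were higher beside 6.45% of all genes, and 6 were lower beside 9.95%. Of the 26, 14 reached that level in 1 library alone, 9 in TA/WT cells and 5 in E14. Over all genes these numbers were 421 and 749. Reaching the level in 1 library alone favours a difference, and the counts are a description only.

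Genes of the list differed in both directions. Of the 12 with a TPM of at least 1 in both libraries, the neural genes Sox1 (TPM 3.80 and 10.7) and En2 (3.49 and 7.48) and the mesendoderm gene Eomes (2.57 and 7.34) were more than 2-fold higher. The endoderm genes Gata4 (1607 and 274 reads) and Gata6 (952 and 174 reads) were more than 2-fold lower, and both are also among the primitive endoderm markers given above. Of all genes at that level in both libraries, 4.59% were higher and 6.07% lower. Among genes with few reads in E14, T had 62 and 606 reads, Cdx2 32 and 554, Evx1 2 and 94 and Hoxa9 36 and 197. Others had fewer reads in TA/WT cells, with Nkx2-5 at 62 and 7, Lhx2 at 74 and 10 and Tbx5 at 24 and 0. Hoxb1 had 25 and 13 reads, but the interval of its log2 ratio (-1.47 to 0.64) includes 0. The regulators as a group were thus not lifted or lowered together. Their summed TPM was 116 in E14 and 122 in TA/WT cells, but a few genes carry this sum. Cdkn2a was its largest term in both libraries (TPM 34.6 in E14 and 20.9 in TA/WT cells) and was lower where others were higher. The similar sums therefore do not show that the group stayed level.

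**Figure D5:**
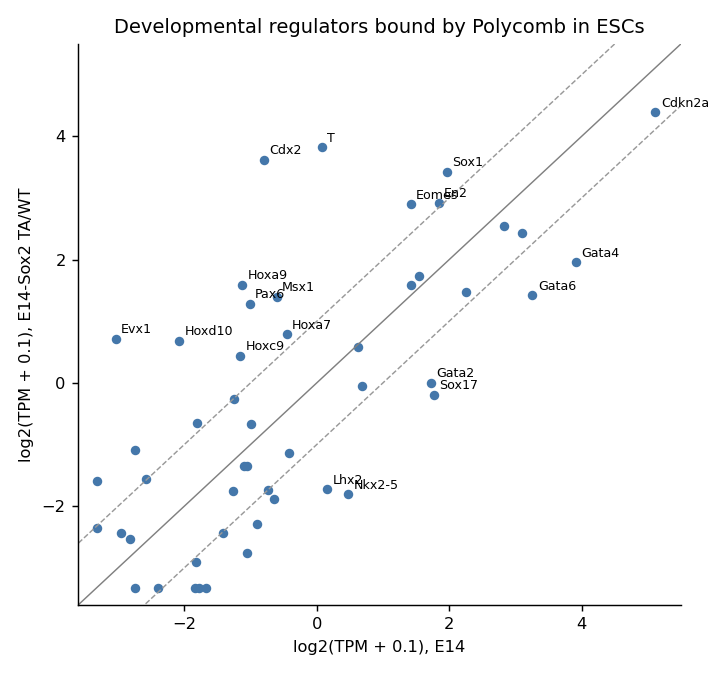
Log2(TPM + 0.1) of 50 Polycomb-bound developmental regulators in E14 (horizontal axis) and TA/WT cells (vertical axis), with 1 point per gene, a line of equal level and dashed lines at 2-fold. Points lie on both sides of the line, with Cdx2 and T far above it and Gata4 and Gata6 below it.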

How the data were processed

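Polyadenylated RNA of 1 library per group was sequenced on an Illumina NovaSeq instrument. The submitters' processing notes name bcl2fastq 2.20.0, Trimmomatic, HISAT2 2.1.0 and StringTie 2.1.3b, without settings. The authors deposited whole-number read counts per RefSeq gene (mm10), which are not normalized, together with FPKM, which is adjusted for length and library size. The TPM values, also deposited, are adjusted for length and sum to nearly the same total in both libraries. Log2 ratios of TPM were computed here with no pseudocount, for genes at a TPM of 10 or more in either library, and genes past 2-fold were counted. The filter and the threshold are those of the study, but the counts are not the same. The study reported more genes higher and fewer genes lower in TA/WT cells than were found here. The 95% intervals of single genes are exact (Clopper-Pearson) intervals of the count ratio, moved to the TPM scale (scipy 1.17.1). Quotients of gene pairs were not planned. Their intervals come from the odds ratio of the read counts, by a normal approximation, or by the conditional method for Cbx2 to Cbx8. All these intervals reflect the sampling of reads alone, and PCR copies make reads less independent than this assumes. No test across genes was possible with 1 library per group.

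Genes named are the 10 Polycomb genes, every list gene past both the TPM filter and 2-fold, and the related genes in the balance comparisons. For the Polycomb and regulator lists, the highest and lowest gene past the filter are also named. Of 10 housekeeping genes planned as a check of the scaling, 9 passed the filter. Their median log2 ratio was -0.03, from Ywhaz (-0.37) to Actb (0.70). Other genes of the lists, the overlapping genes, and those under the filter were named after their values had been seen. Members and lists were chosen with earlier results of these data known. Alternatives used TMM factors (edgeR 4.0.16), median-of-ratios size factors (DESeq2 1.42.0) and medians in 20 bins of GC content and of length over GENCODE M21 transcripts, which matched 9033 of the 9094 genes past the filter. Positions and promoter windows came from RefSeq (GRCm38.p6, the build of mm10), exon overlaps and transcripts from GENCODE M21. A search for near-identical transcripts (BLAST 2.17.0, at least 95% identity over 200 bases) found the overlapping genes of Eed, Kdm2b and Mtf2, and for Kdm2b also Gm12397, which has no row in the table. Of the planned lists, 1 canonical PRC1 gene is not reported here. The interval code was tested on simulated data.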

Additional observations from a re-analysis of the deposited data

How the results depend on the processing

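The 2 Polycomb genes more than 2-fold higher remained Jarid2 and Kdm2b under FPKM, CPM, TMM, median-of-ratios scaling, centring, both pseudocounts, the other TPM filters, 1.5-fold and the counting interval. The number was 1 (Kdm2b) with the GC and length trend removed and 0 at 3-fold. None of the 10 was lower past the threshold in any setting. In the partner lists Cbx8 was lower and Asxl3 higher with the filter at a TPM of 1 or none. At a TPM of 1, Cbx8 was 1 of 9 canonical PRC1 genes, beside 9.95% of all genes lower. Asxl3 was 1 of 11 PR-DUB genes, beside 6.45% of all genes higher. Cbx8 reached that level in E14 alone and Asxl3 in TA/WT cells alone, which favours a difference. At 1.5-fold, 3 variant PRC1, 3 PR-DUB, 1 canonical PRC1 and 3 demethylase or methyltransferase genes were higher, beside 14.2% of all genes. At that threshold 2 variant PRC1 genes were lower (Pcgf1 and Fbrsl1), beside 10.5% of all genes. The median log2 ratio of the 10 genes (0.32) was 0.18 with FPKM, 0.18 with CPM and 0.24 with centring, and it followed the median of all genes, which was 0.08 with TPM, -0.06 with FPKM and -0.06 with CPM. Jarid2 had 1.01 with FPKM, so at that scaling it lay at the threshold. Of 81 alternative values of single genes, 36 stayed inside the counting interval and Suz12 and Ring1, both under 2-fold, changed sign in some.

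Over all genes, 379 were higher and 370 lower (50.6% higher). This split was 278 and 496 (35.9%) with FPKM, 280 and 496 (36.1%) with CPM, and 41.3% with centring. The numbers were 886 and 1366 with the TPM filter at 1, 1836 and 3388 without a filter, 1291 and 955 at 1.5-fold, and 104 and 136 at 3-fold. Counts summed over copies were not run, since no separate copy had a row. No paired analysis was possible because each group had 1 library, and for the same reason no replicate could be left out. Of the 10 genes, Ring1 had the fewest reads (456 in the smaller library), and Cbx8 had 6 there.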

Other observations

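The genes around Jarid2 and Kdm2b were compared with them. Of the 10 genes past the TPM filter nearest to Jarid2 on chromosome 13, 5 on each side, none was more than 2-fold higher and Sirt5 was more than 2-fold lower (TPM 12.8 in E14, 4.96 in TA/WT cells). Their median log2 ratio was -0.06, and the highest was Nup153 (TPM 58.7 and 108). Of the 10 around Kdm2b on chromosome 5, the median was -0.08. Setd1b, which encodes a histone H3 lysine 4 methyltransferase, was more than 2-fold higher (TPM 5.01 and 10.7), Camkk2 had a TPM of 10.1 and 18.7, and the other 8 lay between -0.30 and 0.17. Around Cbx2, whose neighbour Cbx8 is under the filter, the 10 genes had a median of 0.14, and none differed more than 2-fold. These genes were named after their values had been seen, and no difference has a replicate check. Sirt5 reached a TPM of 10 in E14 alone and Setd1b in TA/WT cells alone, which favours a difference. Over all genes past the filter, 4.17% were more than 2-fold higher and 4.07% lower.

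Exons of several of the 10 Polycomb genes overlap those of a measured gene on the opposite strand. Mtf2 shares 395 exon bases with Tmed5, which had a log2 ratio of 0.31, opposite in sign to that of Mtf2. Rnf2 shares 158 bases with Trmt1l (0.36) and Cbx7 shares 100 bases with Apobec3 (0.21).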
